A study of Mus musculus with 8 samples.

Results

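The 28 genes described here encode the enzymes and regulators with which a cell builds cholesterol and fatty acids, and they were followed in mouse mammary tumor organoids with and without SOX4. They were taken from a list of gene symbols, and all 28 were found among the 38293 gene identifiers of the bulk tables and among the 13493 to 13900 gene names of each single-cell table. By role, 7 genes act in the mevalonate steps that turn acetyl units into farnesyl diphosphate, 11 carry squalene on to cholesterol, 4 regulate the pathway or move sterols, and 6 make fatty acids.

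The organoids came from tumors of MMTV-PyMT; MMTV-Cre; Ecadherin-mCFP mice, in which a mammary promoter drives the polyoma middle T oncogene and Cre. In SOX4KO lines Sox4, a transcription factor gene, was targeted by CRISPR/Cas9, and control lines of the same organoid model kept it. Bulk RNA was sequenced from 2 control lines (WT1 and WT3) and 3 SOX4KO lines (H7, M4 and H4), and single cells were sequenced from 1 control library (GR17) and 2 SOX4KO libraries (GR18 and GR19). All 8 samples were grown for 4 days from single cells in DMEM/F12 with B27 and FGF2, so no group differed in age or medium. Each bulk library was 1 organoid line, so line and genotype effects cannot be separated beyond the number of lines, and the labels do not say which bulk line, if any, matches a single-cell library.

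Cells make cholesterol from acetyl-CoA through mevalonate, squalene and lanosterol, and they make palmitate from the same acetyl-CoA through malonyl-CoA. Both routes are controlled by SREBP transcription factors, which are held in the endoplasmic reticulum by INSIG proteins while sterols are plentiful and are released to the nucleus when sterols run low. SREBP2, from Srebf2, mainly serves the sterol enzymes and SREBP1, from Srebf1, mainly the fatty acid enzymes, which in the mammary gland are also part of milk fat production.

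SREBPs bind sterol elements near the start of many of these genes, often together with NF-Y, which binds CCAAT. In the RefSeq promoter table of GRCm38.p6, 22 of the 28 genes matched, with 27 promoters between them, and Scd1, Scd2, Fdps, Fdft1, Sqle and Stard4 had no entry. Each window ran from 250 bases before to 50 bases after a start and was searched on both strands. The sterol element core TCACNCCAC was present in 1 of the 27 promoters, that of Hmgcs1, and in 1.24% of the 32851 promoters of the table. CCAAT was present in 20 of 27 against 37.4% of all promoters, and GGGCGG, the core of the GC box, in 20 of 27 against 35.7%. A match is a string of letters and not a measured binding site, and the lack of one says only that these letters were not in the window.

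The stretches of 200 bases before the start are shown for 3 genes: Hmgcs1, the gene with the sterol element core; Msmo1, a sterol enzyme with higher levels in every SOX4KO bulk line; and Fasn, which makes palmitate. They lie at chr13:119690151-119690350 (plus strand), chr8:64733579-64733778 (minus strand) and chr11:120824548-120824747 (minus strand) of GRCm38.p6. Capitals mark TCACNCCAC and CCAAT on either strand, CCAAT reading ATTGG on the other strand.
Hmgcs1: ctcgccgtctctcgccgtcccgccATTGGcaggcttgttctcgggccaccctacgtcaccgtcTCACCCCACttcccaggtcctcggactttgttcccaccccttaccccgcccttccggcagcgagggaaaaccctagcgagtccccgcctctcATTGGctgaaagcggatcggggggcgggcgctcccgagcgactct
Msmo1: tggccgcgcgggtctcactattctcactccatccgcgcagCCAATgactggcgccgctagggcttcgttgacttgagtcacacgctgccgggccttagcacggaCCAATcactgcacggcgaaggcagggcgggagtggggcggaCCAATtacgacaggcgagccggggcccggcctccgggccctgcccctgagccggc
Fasn: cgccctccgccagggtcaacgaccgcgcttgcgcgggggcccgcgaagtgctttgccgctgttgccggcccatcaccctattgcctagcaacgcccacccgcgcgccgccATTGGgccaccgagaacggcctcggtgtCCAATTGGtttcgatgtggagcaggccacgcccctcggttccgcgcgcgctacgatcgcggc
In Hmgcs1 the sterol element core began 137 bases before the start, between CCAAT matches that began at -176 and -45. Msmo1 and Fasn held 3 CCAAT matches each and no TCACNCCAC, and in Fasn the matches at -62 and -59 overlapped on opposite strands.

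The bulk libraries held 3050323 to 4678497 reads on genes, with 3.97% to 7.66% of them on mitochondrial genes. M4 was the shallowest, took 19.7% of its reads from its 10 highest genes against 11.3% to 13.5% in the other lines, and had 64.7% of its uniquely aligned reads outside annotated genes against 46.6% to 55.6%. Sox4 was at 294 and 373 CPM, reads scaled to a common library total, in the control lines and at 198, 178 and 298 CPM in the SOX4KO lines (log2 fold change -0.57, SE 0.25, adjusted p = 0.277 by edgeR). A CRISPR/Cas9 edit need not remove the transcript, so this level does not check the labels. All 6 epithelial markers passed the filter. They mark epithelium, whether normal or tumor, so they do not check the tumor label. Adipoq, Plin1, Cidec, Lep, Cfd and Pck1 of the adipocyte list had 0 reads in all 5 lines. The 8 adipocyte markers summed to 10.8 and 12.7 CPM in the control lines and 16.1 to 19.8 CPM in the SOX4KO lines, nearly all of it Lipe. The 16 proliferation genes summed to 934 and 951 CPM in the control lines and to 472, 648 and 419 CPM in the SOX4KO lines, and 8 of the 16 were called lower (edgeR, adjusted p under 0.1), beside 2.17% of all genes. Epithelial markers summed to 2541 and 2692 CPM in the control lines and 1742 to 2336 CPM in the SOX4KO lines, and basal markers to 583 and 373 CPM and to 774, 1293 and 473.5 CPM. Fibroblast markers stood at 58.5 to 103 CPM, most of it Pdgfra at 41.4 to 99.8 CPM. Endothelial markers stood at 1.03 to 2.51 CPM and immune at 1.59 to 14.1 CPM, H7 being the highest in the last, with 54 reads of Cd68. Thy1, Cdh5, Kdr and Cd3e had 0 reads in every line, whereas Pdgfra, Pdgfrb, Dcn and Cd68 had reads in every line. The part of these markers in the results on lipid synthesis was not tested, and in bulk RNA fewer cells of a type and less RNA per cell cannot be told apart.

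For all but Scd2 of the 28 genes, no difference in bulk RNA passed the test. Of the 28, all of which passed the filter on low counts, 1 was called lower and 0 were called higher at an adjusted p under 0.1 (edgeR, Benjamini-Hochberg over all 11682 genes), where 2.17% of all genes tested were called lower and 4.1% higher. Without adjustment, 5 genes had a p under 0.05, 4 higher (Acat2, Msmo1, Insig1 and Acaca) and 1 lower (Scd2), beside 10.4% and 7.68% of all genes. The median log2 fold change of the 28 was -0.04, and that of all genes was 0.01. DESeq2 called Msmo1 and Insig1 higher as well, with 5.79% of all genes called higher and 2.76% lower. All 3 SOX4KO lines lay above both control lines for 5 genes (Acat2, Msmo1, Sc5d, Insig1 and Acaca) and below both for 1 (Scd2), where 19.0% and 17.9% of all genes tested did so, so the share of genes set apart on the higher side was near that of all genes and the share on the lower side was below it.

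**Figure D1:**
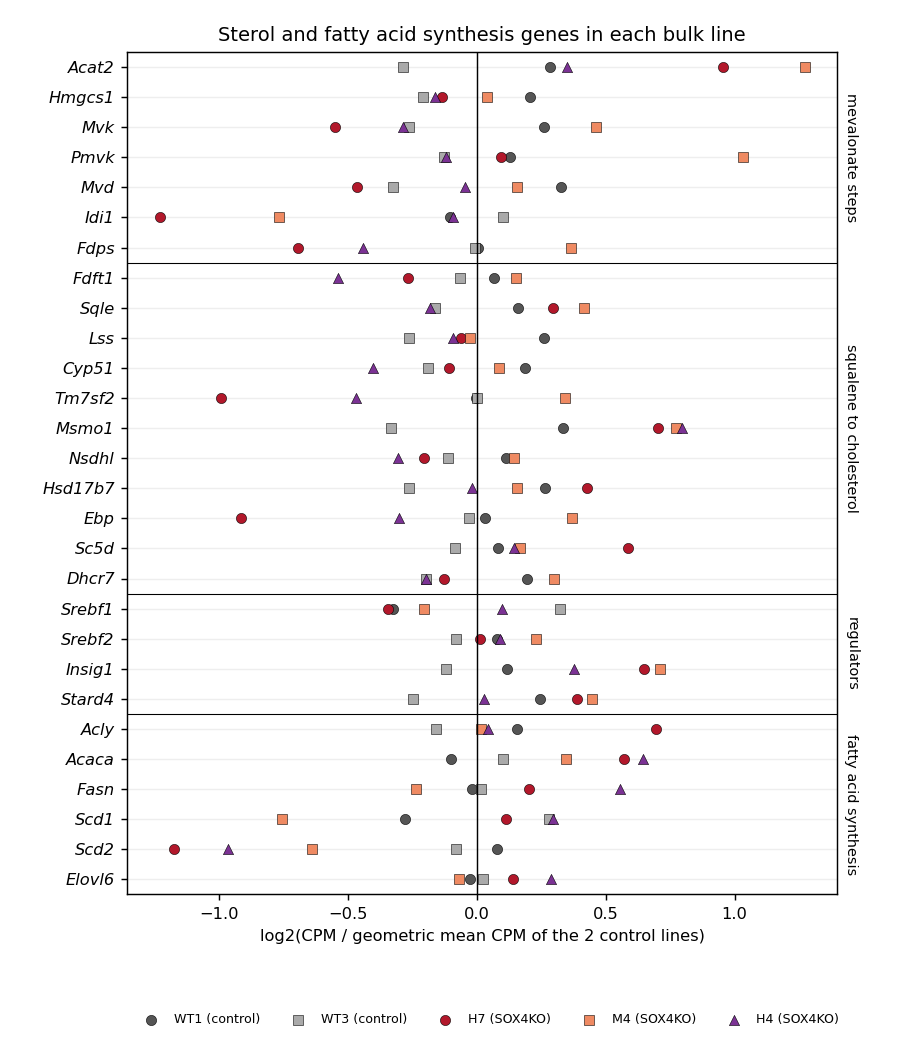
Level of each of the 28 genes in each bulk line, as log2 of its CPM over the geometric mean CPM of the 2 control lines, with circles and squares in grey for control lines and coloured symbols for SOX4KO lines. All 3 SOX4KO points lie left of both control points only for Scd2, and M4 is often the rightmost point among the sterol enzymes.

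In the mevalonate steps, 5 of 7 genes had fold changes below 0, 2 above 0, and none was called. Acat2 (chr17:12942890-12960747, minus strand, GRCm38), the cytosolic thiolase that joins acetyl-CoA units, was at 35.7 and 24.1 CPM in WT1 and WT3 and at 56.9, 70.9 and 37.4 CPM in H7, M4 and H4. The groups did not overlap, but H4 was close to WT1, and the log2 fold change of 0.88 (SE 0.30) had an adjusted p of 0.173 (edgeR), or 0.0591 without H4, when it was called. Of the 50-base stretches of its annotated transcripts, 39.1% also occur in other genes on either strand, mainly Acat3. Reads could thus have been lost or split between them. Hmgcs1, the synthase of the next step, was at 146 and 109 CPM in the control lines and between 113 and 130 CPM in the SOX4KO lines, all inside the control range (log2 fold change -0.10, SE 0.19). For Mvk, the first kinase of the route, the log2 fold change was -0.09 (SE 0.32), and for the decarboxylase Mvd it was -0.13 (SE 0.28). Pmvk, the kinase between them, was at 26.1 and 21.9 CPM in the control lines and at 25.6, 49.0 and 22.0 CPM in H7, M4 and H4, so that M4 alone stood above the controls. Fdps, which makes farnesyl diphosphate for sterols and for prenylation, was at 105 and 104 CPM in the control lines and at 64.7, 135 and 77.1 CPM in H7, M4 and H4. The SOX4KO lines thus fell on both sides of the controls, and the log2 fold change was -0.19 (SE 0.29). Idi1, the isomerase that readies isoprenoid units, had the lowest bulk level per length of the 28, at 0.744 to 1.88 CPM per kilobase of exon, and its log2 fold change was -0.61 (SE 0.43, the largest of the 28). Its level in the single-cell libraries was 175 to 227 CPM, and 25.3% of its 50-base stretches are shared with other genes; whether shared sequence lowered its bulk count was not tested.

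From squalene to cholesterol, 4 of 11 genes had fold changes above 0 and 7 below, and none was called by edgeR. Msmo1 (chr8:64718139-64733792, minus strand, GRCm38), which removes methyl groups from lanosterol products, was at 51.3 and 32.3 CPM in the control lines and at 66.3, 69.5 and 70.7 CPM in H7, M4 and H4. The SOX4KO lines were tight and above both controls, and the log2 fold change was 0.73 (SE 0.22, adjusted p = 0.134 by edgeR and 0.0931 by DESeq2). It rested on the 2 control lines, being 0.42 without WT3 and 1.09 without WT1. Sc5d, a late desaturase, was at 52.3 and 46.6 CPM in the control lines and at 74.1, 55.4 and 54.6 CPM in the SOX4KO lines, apart but narrowly so (log2 fold change 0.31, SE 0.20). Squalene epoxidase (Sqle), a slow step of the route, was at 119 and 94.8 CPM in the control lines and at 130, 141 and 93.4 CPM in H7, M4 and H4. H4 was thus the lowest of the 5 lines and M4 the highest, and the log2 fold change was 0.19 (SE 0.22). The fold changes of the other 8 enzymes ranged from -0.29 for the reductase Tm7sf2 to 0.18 for the reductase Hsd17b7. Squalene synthase (Fdft1) was at -0.20 (SE 0.24), lanosterol synthase (Lss) at -0.08 (SE 0.20) and lanosterol demethylase (Cyp51) at -0.14 (SE 0.21). The dehydrogenase Nsdhl was at -0.12 (SE 0.20), the isomerase Ebp at -0.20 (SE 0.33) and Dhcr7, the reductase of a last step, at -0.01 (SE 0.22). All 8 overlapped between groups. Of the 50-base stretches of Fdft1 26.5%, of Fdps 26.2% and of Hmgcs1 11.6% are shared with other genes, so their counts may be less certain. These shares include matches on the opposite strand, which were not counted apart.

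Differences between lines of the same genotype were as large as those between genotypes. Summed over the 18 sterol enzymes, WT1 stood at 999 CPM and WT3 at 798 CPM, against 882.5, 1116 and 811 CPM in H7, M4 and H4. WT1 was above WT3 for 16 of the 18 enzymes, where 49.4% of all genes tested were. M4 was the highest of the 5 lines for 10 of the 18 and the lowest for 0, where it was highest for 25.7% of all genes and lowest for 25.5%. WT3, H7 and H4 shared the lowest place for the 18 enzymes, with 7, 6 and 5 of them. The control and SOX4KO lines thus overlapped in the sum of the sterol enzymes.

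Among the regulators, Insig1 had the largest bulk difference, and Srebf1 varied between lines. Insig1 (chr5:28071363-28078662, plus strand, GRCm38), which retains SREBPs and is itself a classical SREBP target, was at 111 and 94.0 CPM in the control lines and at 160, 167 and 132 CPM in H7, M4 and H4. Every SOX4KO line was above both controls, with a log2 fold change of 0.58 (SE 0.18, adjusted p = 0.144 by edgeR and 0.0872 by DESeq2). Srebf1 (chr11:60199089-60222581, minus strand, GRCm38) was at 585 and 916 CPM in the control lines and at 576, 635 and 782 CPM in the SOX4KO lines. The 2 controls spanned nearly the whole range, and the log2 fold change was -0.17 (SE 0.25). Srebf2 stayed between 144 and 179 CPM in all 5 lines (log2 fold change 0.11, SE 0.17, the smallest error of the 28). For Stard4, a carrier of cholesterol between membranes, the log2 fold change was 0.28 (SE 0.22), with overlapping groups. Per kilobase of exon, Srebf1 was at 102 to 163 CPM and Srebf2 at 20.1 to 24.9 CPM.

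Among the fatty acid genes, Scd2 fell in the SOX4KO lines while its neighbour Scd1 did not follow the genotype. Both encode stearoyl-CoA desaturases, which place the double bond in oleate and palmitoleate, and they lie on chromosome 19 of GRCm38 with 87.6 kilobases between them (Scd2 at chr19:44293674-44306864, plus strand, and Scd1 at chr19:44394455-44407879, minus strand). Scd2 was at 789 and 706 CPM in WT1 and WT3 and at 331, 479 and 383 CPM in H7, M4 and H4. All SOX4KO lines were below both controls, with a log2 fold change of -0.91 (SE 0.21, adjusted p = 0.0575 by edgeR and 0.0011 by DESeq2). The call was lost in edgeR when WT1 (adjusted p = 0.348), WT3 (0.387) or H7 (0.121) was left out, with the fold change between -1.07 and -0.80 over the 5 such fits. Without WT1 or WT3 a single control line was left, assumed to vary like the SOX4KO lines, and over all genes the calls fell to 93 higher and 37 lower without WT1 and to 30 and 26 without WT3. Scd1 was at 1006 and 1481 CPM in the control lines and at 1320, 723 and 1499 CPM in the SOX4KO lines, so that M4 was the lowest and H4 the highest (log2 fold change -0.07, SE 0.33). The ratio of Scd1 to Scd2 reads was 1.27 and 2.10 in WT1 and WT3 and 3.99, 1.51 and 3.91 in H7, M4 and H4. M4, where both genes were low, thus lay within the control range of the ratio. Of the 50-base stretches of Scd1 4.56%, and of those of Scd2 3.97%, were found unchanged in other genes, Scd3 and Scd4 among them. These shares bear on the assignment of reads and do not measure how similar the 2 genes are.

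**Figure D2:**
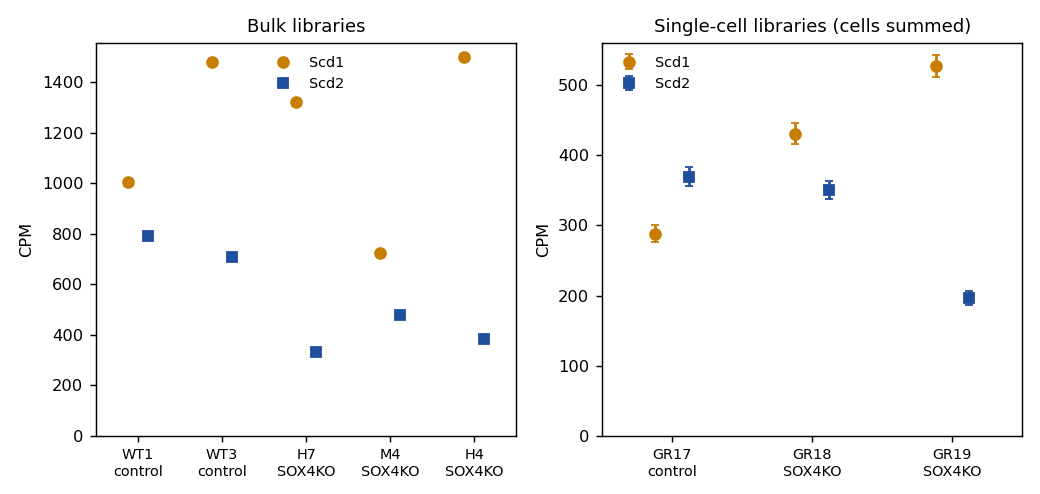
Levels of Scd1 (circles) and Scd2 (squares) in CPM in each bulk library (left) and in each single-cell library with all cells summed (right), where bars are 95% counting intervals. In bulk, Scd2 lies between 331 and 479 CPM in the SOX4KO lines and at 706 and 789 CPM in the controls, and among single-cell libraries it is lower only in GR19, at 196 CPM.

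The 4 other fatty acid genes had bulk fold changes above 0 and none was called. Acaca (chr11:84129672-84401651, plus strand, GRCm38), the carboxylase that commits acetyl-CoA to fatty acids, was at 66.8 and 76.9 CPM in the control lines and at 106, 91.1 and 112 CPM in H7, M4 and H4. All SOX4KO lines were above both controls (log2 fold change 0.52, SE 0.18, adjusted p = 0.170 by edgeR), and 30.4% of its 50-base stretches also occur in other genes, mostly Gm5182. Without M4 the adjusted p of Acaca was 0.0837 and it was called. Fatty acid synthase (Fasn) was at 275 and 281 CPM in the control lines and at 320, 236 and 408 CPM in H7, M4 and H4, on both sides of the controls (log2 fold change 0.21, SE 0.24). For Acly, which supplies cytosolic acetyl-CoA from citrate, the fold change was 0.28 (SE 0.25), led by H7 at 282 CPM against 156 to 194 CPM in the other 4 lines. For Elovl6, which lengthens palmitate, it was 0.13 (SE 0.18). M4 was the lowest of the SOX4KO lines for Acly, Acaca, Fasn, Scd1 and Elovl6, for Acly only narrowly, at 176 CPM against 179 CPM in H4. For Scd2 it was the highest of them, at 479 CPM against 331 and 383 CPM. Among the sterol enzymes M4 was often the highest line.

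Other genes of the pathway were counted from lists, beside 4.1% of all genes called higher and 2.17% called lower. Of 8 genes that process or restrain SREBPs, 0 were called. Of 13 genes of sterol uptake, handling and efflux, 12 passed the filter and 0 were called, although Vldlr, a lipoprotein receptor, was at 182 and 174 CPM in the control lines and at 514, 254 and 338 CPM in the SOX4KO lines (log2 fold change 1.05, SE 0.29, adjusted p = 0.102 by edgeR). Of 18 other lipid synthesis genes, 2 were called higher and 1 lower. Acss2, which makes acetyl-CoA from acetate, was at 21.2 and 13.7 CPM in the control lines and rose to 36.3, 34.6 and 29.5 CPM (log2 fold change 0.94, SE 0.25, adjusted p = 0.0868 by edgeR). Fads1, a desaturase of polyunsaturated fatty acids, rose from 327 and 272 CPM to 554, 479 and 449 CPM (log2 fold change 0.72, SE 0.19, adjusted p = 0.0915). Thrsp, a lipogenic protein gene, fell from 8.28 and 8.56 CPM to 1.04, 2.88 and 2.63 CPM (log2 fold change -1.95, SE 0.46, adjusted p = 0.0624). Of 10 fatty acid oxidation genes that passed, 1 was called lower: Cpt1a, which admits fatty acids to mitochondria, was at 51.3 and 54.6 CPM in the control lines and at 32.6, 20.9 and 29.7 CPM in the SOX4KO lines (log2 fold change -0.92, SE 0.22, adjusted p = 0.0657). Of 8 genes of the isoprenoid branch, 0 were called. The medians of these 5 lists were -0.08 for SREBP processing, 0.11 for sterol handling, 0.30 for other lipid synthesis, -0.18 for the isoprenoid branch and -0.06 for oxidation, beside 0.01 for all genes.

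The single-cell libraries came from plates of 384 wells, and wells with at least 1000 unique molecules (UMIs) were kept as cells, 369 in GR17, 369 in GR18 and 362 in GR19. Summed over cells they held 7714119, 8009481 and 8296953 UMIs, with mitochondrial shares of 11.4% in GR17 to 15.1% in GR19. Columns are well numbers of separate plates, so the names are shared between libraries by construction and do not tie cells together. With a single control library no test was run, and 95% Poisson intervals cover counting error only. A gene counted as past the fold when it was at least 1.5-fold higher, or lower, than GR17 in both SOX4KO libraries, on the log2(CPM + 1) scale, among 6303 genes of at least 20 CPM on average.

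Of the 28 genes, 27 could be compared, Srebf2 being under the minimum at 20.7, 21.6 and 16.9 CPM. Srebf1 was past the fold, higher, and 0 were past it lower, where 5.39% and 2.65% of all genes were. At any size, 18 of the 27 were above the control in both SOX4KO libraries and 6 below, where 38.8% and 42.5% of all genes were. The counting intervals were clear of the control interval in both libraries for 9 genes on the higher side and 2 on the lower, where 16.6% and 18.8% of all genes were. The median log2 ratio of the 27 was 0.17, and that of all genes was -0.02.

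Srebf1 was at 129 CPM in GR17 (95% interval 121 to 137) and at 248 and 210 CPM in GR18 and GR19. Both SOX4KO libraries were far above the control interval, with log2 ratios of 0.94 and 0.70, whereas bulk Srebf1 had a fold change of -0.17. Insig1 was at 43.8, 61.4 and 55.7 CPM in GR17, GR18 and GR19, above the control interval of 39.3 to 48.7 CPM in both, as in bulk. Stard4 was at 22.2, 20.4 and 25.3 CPM, with overlapping intervals.

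The sterol enzymes were mostly a little higher in both SOX4KO libraries. Of the 18 enzymes, 14 were above the control in both, 2 (Hsd17b7 and Ebp) were below in both, and the median log2 ratio was 0.23. Summed, they were at 1864 CPM in GR17, 2118 CPM in GR18 and 2101 CPM in GR19. The largest ratios were those of Pmvk, at 41.2, 66.0 and 55.1 CPM, Lss, at 83.1, 103 and 122 CPM, and Mvk, at 55.9, 82.0 and 66.9 CPM. Acat2, higher in every SOX4KO bulk line, was at 194, 224 and 229 CPM, and Msmo1 was at 159, 172 and 210 CPM. Both were thus above the control in both libraries, but the interval of Msmo1 in GR18 overlapped that of the control. Fdps was split, at 263 CPM in GR17, 289 CPM in GR18 and 226 CPM in GR19. Every ratio shares the control library GR17, so a property of that library cannot be told apart from genotype.

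Of the 6 fatty acid genes, 2 were above the control in both libraries and 4 below, with a median log2 ratio of -0.25. Scd1 was at 288 CPM in GR17 and at 431 and 527 CPM in GR18 and GR19, with log2 ratios of 0.58 and 0.87, the first just under the fold. Scd2 was at 370 CPM in GR17, at 350 CPM in GR18 and at 196 CPM in GR19, so the low level of Scd2 in bulk SOX4KO lines was seen in 1 of the 2 single-cell libraries. The summed basal markers were at 3659, 3212 and 1606 CPM in GR17, GR18 and GR19, so GR19 was also the lowest in these, and their part in the level of Scd2 was not tested. The ratio of Scd1 to Scd2 UMIs was 0.780 in GR17, 1.23 in GR18 and 2.69 in GR19. Fasn was at 240, 203 and 170 CPM, Elovl6 at 102, 81.0 and 85.1 CPM and Acaca at 108, 91.5 and 94.0 CPM. For these 3 enzymes the bulk fold changes were on the other side of 0. Acly, at 243, 254 and 255 CPM, moved by less than its counting intervals.

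**Figure D3:**
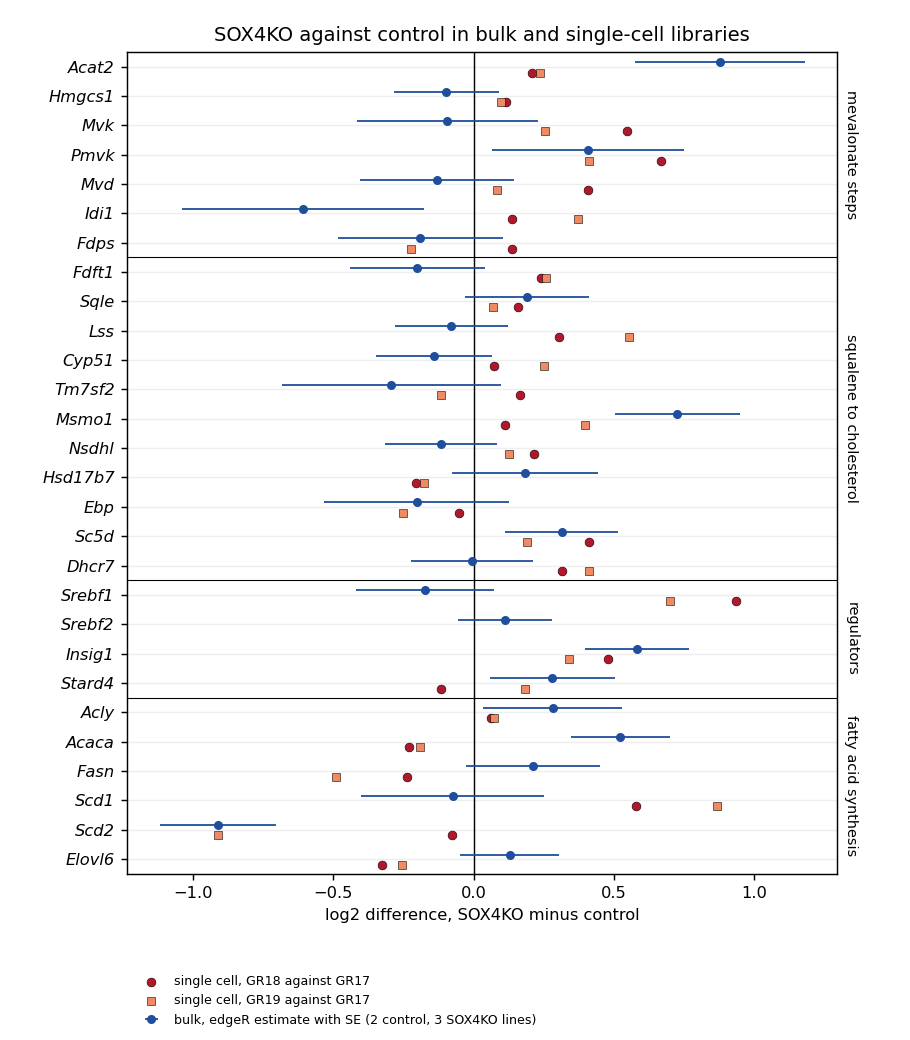
Difference between SOX4KO and control for each gene on a log2 scale, as the edgeR estimate with its SE from the bulk lines (blue) and as the log2(CPM + 1) difference of GR18 and of GR19 from GR17. Scd2 in bulk is the only called difference, and Srebf1, Scd1, Acaca, Fasn and Elovl6 lie on opposite sides of 0 in the 2 assays, as do several sterol enzymes.

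From the pathway lists, 1 of 8 SREBP processing genes compared (Insig2), 2 of 9 sterol handling genes (Vldlr and Mylip) and 3 of 13 other lipid synthesis genes (Acss2, Lpin1 and Me1) were past the fold, all higher, beside 5.39% of all genes. Of 4 isoprenoid genes and 8 oxidation genes compared, 0 were past it. Acss2 was at 11.7 CPM in GR17 and at 31.7 and 30.01 CPM in GR18 and GR19, and Vldlr was at 25.5 CPM and at 73.7 and 79.2 CPM. Insig2, which acts as Insig1 does, was at 22.2 CPM in GR17 and at 37.8 and 42.8 CPM. In bulk it was at 49.4 and 47.4 CPM in the control lines and at 73.1, 62.6 and 77.1 CPM in the SOX4KO lines (log2 fold change 0.55, SE 0.18, adjusted p = 0.145 by edgeR). Me1, a source of NADPH for lipid synthesis, was at 89.7 CPM in GR17 and at 198 and 178 CPM, and its bulk fold change was 0.60 (SE 0.17, adjusted p = 0.111 by edgeR). Mylip and Lpin1 overlapped between groups in bulk. Their bulk fold changes were 0.43 (SE 0.28, adjusted p = 0.478) and 0.34 (SE 0.32, adjusted p = 0.655 by edgeR). None of the listed pathway genes was past the fold lower, beside 2.65% of all genes. Fads1, called higher in bulk, was at 328, 381 and 322 CPM in GR17, GR18 and GR19, on both sides of the control, and Cpt1a and Thrsp, called lower in bulk, were under the minimum in single cells.

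Within each library the sterol enzymes rose and fell together from cell to cell. For each gene, the correlation across cells between its normalized level and the summed level of the other sterol enzymes was taken, as a description without a test. The median r of the 18 enzymes was 0.32 in GR17, 0.37 in GR18 and 0.39 in GR19, beside 0.04, 0.05 and 0.06 for all genes compared. Above the 95th percentile of all genes were 14, 15 and 15 of the 18. Cyp51 was highest among the enzymes in the SOX4KO libraries, with r of 0.53 and 0.57 and 0.48 in GR17, and Msmo1, Hmgcs1, Idi1, Nsdhl, Fdps and Acat2 were at 0.40 or more in all 3. Tm7sf2, whose step Lbr can also carry out, stood apart with r of 0.06, 0.12 and 0.05. It was the lowest of the 18 enzymes, at 20.5, 23.1 and 18.8 CPM, near the minimum of 20 CPM. Mvd, also low at 25.5, 34.2 and 27.1 CPM, had r of 0.23, 0.36 and 0.29. The part of low counts in the r of Tm7sf2 was not tested, nor that of Lbr.

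Outside the sterol enzymes, Acly, with r of 0.43, 0.56 and 0.50, and Fasn, with 0.42, 0.42 and 0.35, lay above the 95th percentile of all genes in all 3 libraries. Scd1 (0.06, 0.19 and 0.08) and Srebf1 (-0.05, -0.04 and -0.08) lay below it in all 3. The cells of a library share its preparation, and the sterol sum itself correlated with the UMIs of a cell at r of 0.35, 0.39 and 0.32, so depth moved with these values.

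**Figure D4:**
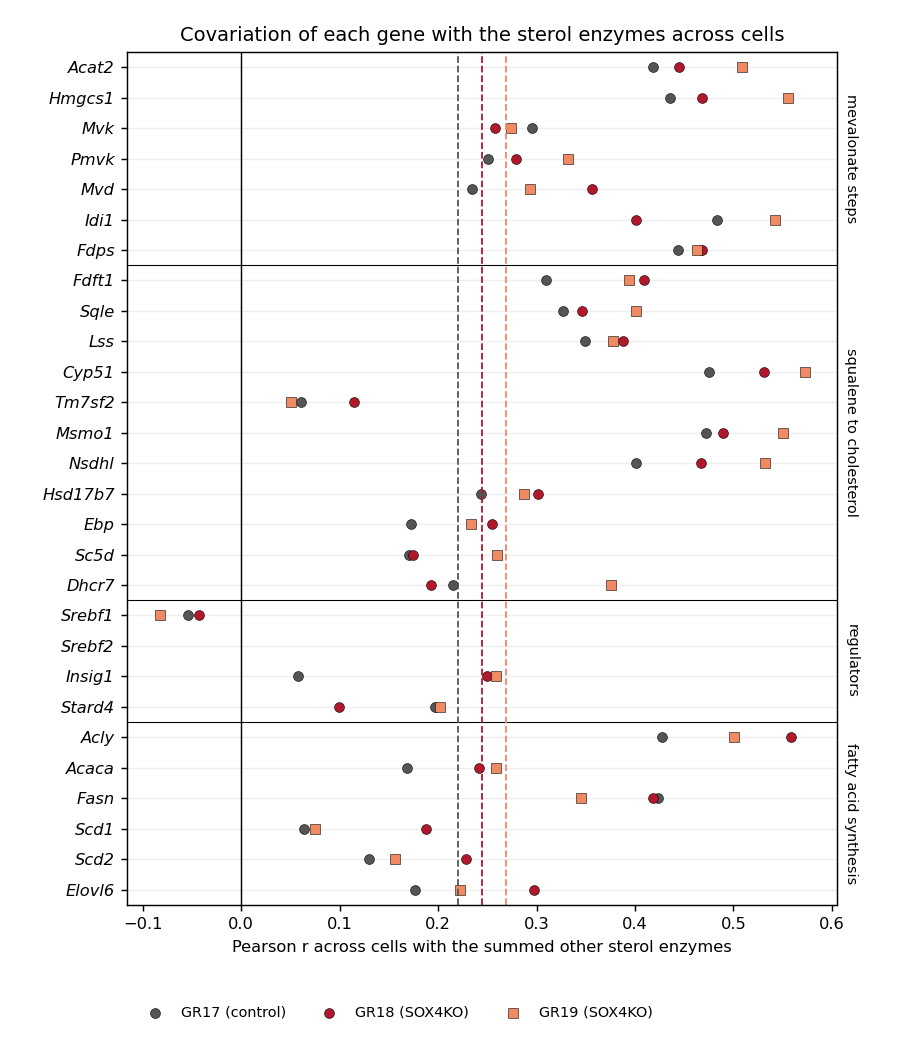
Pearson r across the cells of each library between each gene and the summed other sterol enzymes, for GR17 (grey circles), GR18 (red circles) and GR19 (orange squares), with dashed lines at the 95th percentile of all genes in each library. Most sterol enzymes, Acly and Fasn lie right of the lines, Srebf1 lies left of 0, and Srebf2 was under the minimum and has no point.

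The level of the sterol enzymes in a cell correlated with that of its proliferation genes, and for the sum of the fatty acid genes the correlation was near 0. Per 10000 UMIs of a cell, the median sum of the 18 sterol enzymes was 17.1 in GR17, 19.5 in GR18 and 20.2 in GR19, and that of the 6 fatty acid genes was 12.7, 13.1 and 11.6. The sterol sum correlated with the sum of 16 proliferation genes at r of 0.50, 0.47 and 0.52, and the fatty acid sum at 0.08, 0.09 and 0.02. After each cell was thinned to 10000 UMIs, which left out 35, 39 and 20 shallower cells, the sterol values were 0.35, 0.39 and 0.46 and the fatty acid values 0.03, 0.13 and 0.04. The median proliferation sum was 36.4 in GR17 and 21.8 and 22.7 in GR18 and GR19. Without thinning, Scd1 alone had r of -0.15, -0.20 and -0.23 with the proliferation sum in GR17, GR18 and GR19. Scd2 alone had -0.15, 0.03 and -0.03. The other fatty acid genes were not correlated singly, so the value of the sum does not describe each gene.

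Sorted by their proliferation sum, cells of the SOX4KO libraries held more sterol enzyme UMIs than control cells of the same range. Among cells under 10 proliferation UMIs per 10000, the median sterol sum was 6.59 in GR17 (42 cells), 13.1 in GR18 (108 cells) and 12.9 in GR19 (109 cells). Between 10 and 30 it was 16.9, 20.7 and 21.9, and at 30 and over it was 18.6, 21.8 and 21.3. In the lowest range the cells of GR17 were also shallower, with a median of 12670 UMIs against 15220 and 16590. At 10000 UMIs per cell the values of the lowest range were 8 in GR17 (31 cells), 15 in GR18 and 13 in GR19.

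Cells were clustered into 7 groups lettered by size, which are described by their leading genes and not named as cell types. Clusters A and F held 227 of 232 and 103 of 118 cells from GR17, and clusters C and G held 0 cells from GR17, so the control library was largely split from the SOX4KO libraries, which were mixed in B, C, D, E and G. The clustering used the expression of all genes, so these levels are a description. The sterol sum per 10000 UMIs was highest in G (25.5), led by the mitotic genes Aspm and Cenpe, and in C (23.3), led by Serpinf1 and Mest, and lowest in F (15.2) and in B (16.7). Cluster B, led by Postn, Ndrg1, Car12 and Vegfa, held the highest level of Srebf1, at 350 CPM in its 113 cells of GR18, at 315 CPM in its 98 cells of GR19 and at 248 CPM in its 9 cells of GR17, where the 227 cells of GR17 in A were at 125 CPM. With libraries pooled, the cluster with the most Srebf1 thus held fewer sterol enzyme UMIs per 10000 than all clusters but F. Within GR17 and within GR18 it held the fewest of all clusters, and within GR19 only F held fewer. The pooled fatty acid sum of B per 10000 UMIs, at 14.3, was in turn below only that of E, at 15.8. The proliferation sum of B was 9.433, near the 9.375 of E, where A, C, D and G were at 36.61 to 43.65. Pooled over libraries, cluster F had a lower sterol sum than B and a higher proliferation sum. By library the order of the sterol sums differed. In GR17 it was 15.13 in F (103 cells) and 10.04 in B (9 cells). In GR18 it was 19.25 in F (8 cells) and 17.81 in B (113 cells). In GR19 it was 11.21 in F (7 cells) and 15.79 in B (98 cells). The part of proliferation in the sterol sum of B was not tested.

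Cluster E, led by 1600029D21Rik, S100a8, Wfdc18 and the milk protein gene Csn3, held the highest levels of Scd1 (754 CPM) and Insig1 (99.4 CPM). Scd1 was at 609 CPM in its 14 cells of GR17, at 629 CPM in its 63 cells of GR18 and at 898 CPM in its 54 cells of GR19. Scd2 was lower in GR19 than in GR18 in each of the 5 clusters with at least 40 cells of both, for example 145 against 343 CPM in D and 272 against 433 CPM in B. The fatty acid sum varied little, from 11.9 in F to 15.8 in E, but its genes did not move together. In A and B, Fasn was at 261 and 148 CPM and Scd1 at 268 and 553 CPM.

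**Figure D5:**
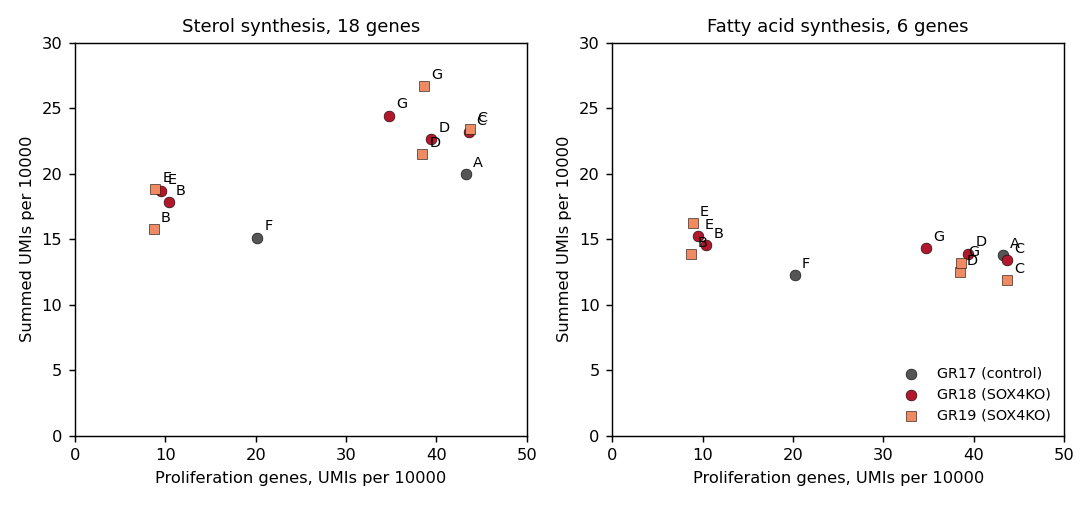
Summed UMIs per 10000 of the 18 sterol enzymes (left) and of the 6 fatty acid genes (right) against those of the 16 proliferation genes, with 1 point for each cluster and library of at least 20 cells, lettered by cluster. The sterol sum runs from 15.1 in the GR17 cells of F to 26.7 in the GR19 cells of G, and the fatty acid sum stays between 11.9 and 16.2.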

How the data were processed

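Bulk libraries were made from poly(A) RNA with a directional kit, and for each the authors deposited raw read counts per gene (htseq-count). The single-cell tables deposited by them hold counts of unique molecules, 1 column per well. The processing notes name STAR 2.4.2a, HTSeq, Picard, DESeq, edgeR, Seurat and R 3.6.1, and build NCBIM37 (mm9). Reads outside annotated genes (46.6% to 64.7% of uniquely aligned reads) and spike-in rows were left out of library sizes. Symbols and lengths were taken from GENCODE on GRCm38, so coordinates are not those of the alignment. Bulk counts were filtered (filterByExpr), scaled by TMM and tested in R 4.3.3 with edgeR 4.0.16 (glmQLFit, glmQLFTest), Benjamini-Hochberg adjustment over all genes and a threshold of 0.1. CPM values are TMM-scaled. Lines were treated as replicates, unpaired. Cells were clustered in Seurat (most variable genes, 10 principal components, resolution 0.5) with no doublet caller. The bulk tests and the single-cell ratio step were also tried on simulated data, with larger changes than those of the 28 genes. All 28 genes are named; members and lists were chosen with earlier results of these data known. Alternatives were DESeq2, its size factors, filters, thresholds, pseudocounts, UMI minimums and omitted libraries.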

Additional observations from a re-analysis of the deposited data

How the results depend on the processing

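No setting called more than 2 of the 28 genes higher or 1 lower in bulk. DESeq2 called 2 higher (Msmo1 and Insig1), edgeR with no filter beyond 1 count called 2 higher (Acat2 and Msmo1), and an adjusted p under 0.05 left 0 lower. With each line left out in turn, 0 to 1 was called higher, 0 to 1 lower, and the median log2 fold change ran from -0.058 to 0.19, the latter without WT1. The sign changed when 1 line was left out for 12 genes, none of them called: the ranges were -0.29 to 0.12 for Hmgcs1, -0.43 to 0.19 for Mvk, -0.0155 to 0.62 for Pmvk, -0.43 to 0.22 for Mvd, -0.57 to 0.0086 for Fdps, -0.32 to 0.20 for Lss, -0.32 to 0.059 for Cyp51, -0.0642 to 0.46 for Hsd17b7, -0.58 to 0.0563 for Ebp, -0.19 to 0.20 for Dhcr7, -0.46 to 0.19 for Srebf1 and -0.33 to 0.23 for Scd1. Over all genes, the calls higher and lower were 479 and 254 by edgeR, 1008 and 678 with no filter, and 30 and 26 without WT3. Size factors of DESeq2 and, chosen after seeing the data, leaving out mitochondrial genes changed no call among the 28.

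In single cells, a 2-fold limit left 0 genes past the fold higher, and leaving out GR18 or GR19 gave 2 to 2 higher and 0 to 1 lower (Scd1 higher and Scd2 lower without GR18, Pmvk higher without GR19). Leaving mitochondrial genes and Rn45s out of the total moved the median of the listed genes to 0.20 and that of all genes from -0.02 to 0.01. The other settings kept 1 higher and 0 lower. No paired analysis was possible because the lines share no pairing in the labels. The causes of these changes were not tested. With 2 control lines in bulk and 1 control library in single cells, each control carries much of every difference. The bulk errors (SE 0.17 to 0.43) had a median of 0.23. They are errors of single genes in bulk, so they do not give the error of the median single-cell log2 ratio of 0.17.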
